A study of Mus musculus with 12 samples.

Results

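Most Hes, Hey and Id proteins are helix-loop-helix repressors that hold neural progenitor cells (NPCs) in an undifferentiated state, whereas Hes6 is known to favour neuronal differentiation. Hes and Hey proteins bind DNA as dimers, and Hes proteins recruit corepressors such as the Groucho (Tle) family. Most Hes and Hey genes are classical targets of Notch, whose cleaved intracellular domain acts with the DNA-binding factor RBPJ. Id proteins lack the basic region, bind no DNA and sequester E proteins, so that proneural activators are left without a partner, and are classical targets of BMP receptors and Smads. In the subventricular zone (SVZ), Notch and BMP signals and contact with blood vessels are known to influence whether stem cells stay quiescent.

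The 10 genes Hes1, Hes5, Hes6, Hey1, Hey2, Heyl, Id1, Id2, Id3 and Id4 were taken by name from the 24108 genes of the count table, and all 10 were listed. Bulk RNA-seq covered 12 libraries of mouse SVZ NPCs (strain C57BL/6 by the labels, isolated at postnatal day 9 to 12), 3 in each of 4 groups. Each genotype, p53+/+ and p53-/-, was grown alone on laminin and in co-culture, where co-culture meant 48 h in direct contact with a monolayer of primary brain microvascular endothelial cells (bmvECs). Per the methods, p53-/- NPCs were derived in culture from p53LoxP/LoxP NPCs with a Cre adenovirus and the controls received an adenovirus without Cre, and co-cultured NPCs were lifted from the bmvECs by selective trypsinization, so bmvEC RNA can be carried over. The libraries came from 3 paired experiments, named 17_9, 25_9 and 1_10, and values below are given in that order. Nothing in the labels ties these names to the repeat numbers.

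Total counts ranged from 16509710 to 22245224 per library. Trp53, the deleted gene, was at 95.1 ± 14.2 CPM (counts scaled to library size with TMM factors; mean ± SD, n = 3) in p53+/+ NPCs alone and 68.8 ± 8.84 in co-culture, against 14.6 ± 2.82 and 17.1 ± 2.99 in the p53-/- groups. The progenitor markers Nes and Sox2 were present in every library, with Nes at no less than 833 CPM and Sox2 at no less than 108 CPM. Of the 9 NPC markers, 2 were higher and 1 lower in p53+/+ co-culture, and 2 were higher and 2 lower in p53-/- co-culture. Nes went from 1873 ± 171 to 963 ± 149 CPM in p53+/+ and from 1576 ± 265 to 996 ± 168 CPM in p53-/- NPCs (edgeR adjusted p = 0.000667 and 0.00765). Gfap, an intermediate filament of astrocytes and SVZ stem cells, went from 556 ± 129 to 13071 ± 3837 CPM and from 292 ± 111 to 7019 ± 1880 CPM (adjusted p = 1.6e-06 and 2.6e-06), and Slc1a3, a glial glutamate transporter, from 1835 ± 68.8 to 3726 ± 281 CPM and from 1636 ± 249 to 3012 ± 157 CPM (adjusted p = 6.4e-05 and 0.000251). The part of these shifts in the members' co-culture values was not tested. Endothelial marker RNA moved with co-culture. The summed level of 26 endothelial markers was 110 to 162 CPM in p53+/+ NPCs alone and 94.7 to 148 CPM in p53-/- NPCs alone, against 233 to 345 and 203 to 266 CPM in co-culture. In co-culture, 21 of the 23 endothelial markers tested were higher and 1 was lower in p53+/+ NPCs, and 20 were higher and 0 lower in p53-/- NPCs. Their median log2 fold change was 4.09 in p53+/+ and 3.72 in p53-/- NPCs. The sum moved less because Slc2a1, also present without bmvECs, held 83.9 ± 22.7 CPM of it in p53+/+ NPCs alone and 76.3 ± 10.7 in co-culture. Cdh5 went from 0.0331 ± 0.0573 to 28.5 ± 8.59 CPM in the same groups. Tie1, Mmrn2 and Sox17 had no counts in any p53+/+ library without bmvECs, and Mmrn2 and Sox17 had none in p53-/- NPCs alone. Mmrn2 had only 3 counts in the p53+/+ and 1 in the p53-/- co-culture group, so its absence elsewhere tells little. Because bmvECs also express members of these families, their part in the co-culture values below was not tested, and in bulk RNA a change in the number of cells of a type cannot be told apart from a change in RNA per cell.

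Per kilobase of exon (GENCODE M21 exon union), Id3 was highest among the members in p53+/+ NPCs alone, at 63.7 ± 14.7 CPM per kb (mean ± SD, n = 3), followed by Hes6 at 55.6 ± 4.64 and Hey1 at 34.9 ± 8.50. Id1 stood at 28.8 ± 22.1, Id2 at 19.4 ± 4.92 and Hes1 at 17.9 ± 2.61 CPM per kb. The lower levels were Hes5 at 6.23 ± 4.89, Id4 at 2.49 ± 0.824, Hey2 at 0.360 ± 0.209 and Heyl at 0.0194 ± 0.0124. Libraries overlapped between Id3 and Hes6, between Hey1 and Id1, among Id1, Id2 and Hes1, and between Hes5 and Id4, and the highest Id1 library lay within the ranges of Id3 and Hes6, so the order within those sets is within the spread between libraries, whereas Hes6 and Hey1, Hes1 and Hes5, Id4 and Hey2, and Hey2 and Heyl did not overlap. Of the 10 genes, 9 passed the filter on low counts, and Heyl did not.

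**Figure D1:**
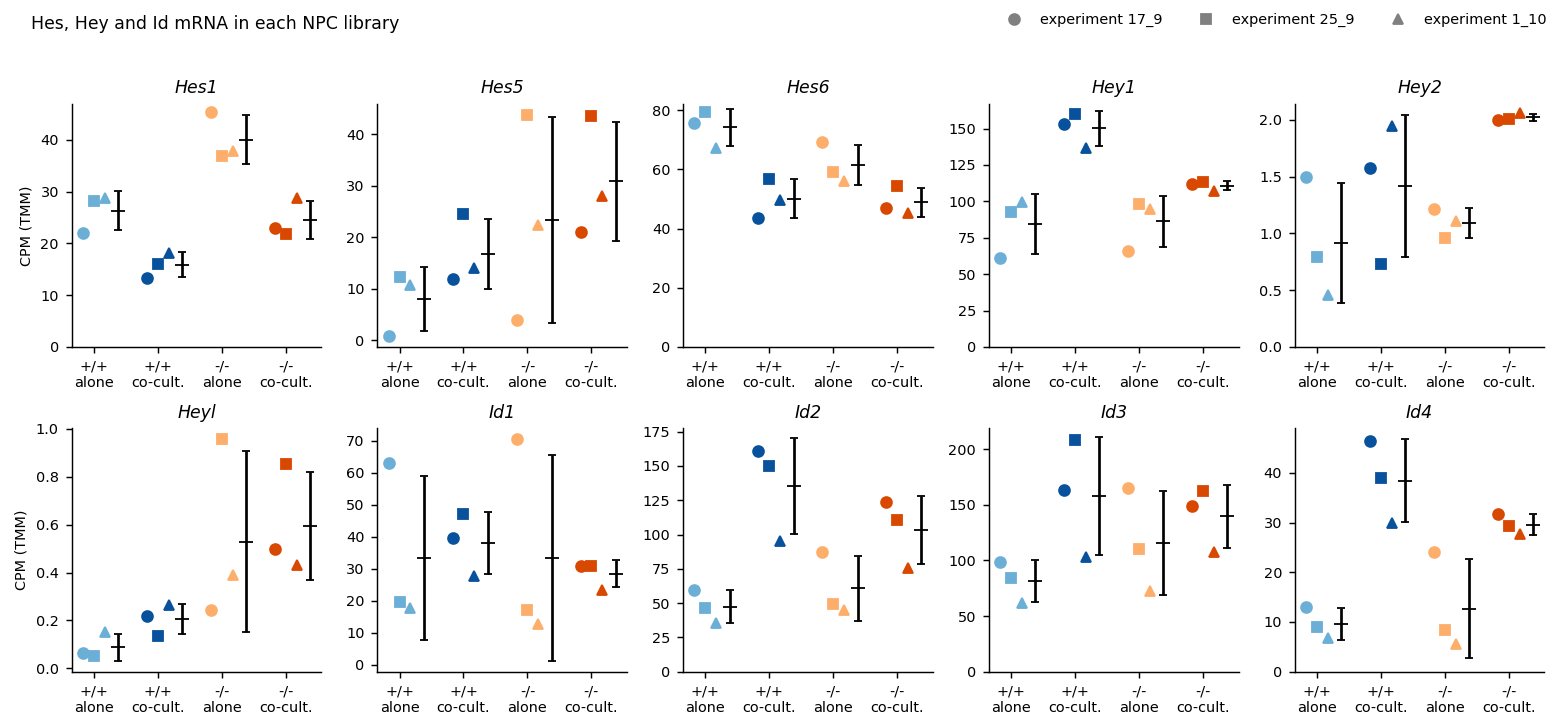
CPM (vertical axis, each panel from its own scale) of the 10 genes in every library, by group (horizontal axis); circles, squares and triangles are experiments 17_9, 25_9 and 1_10, and black bars are mean ± SD of 3 libraries. Hes1 falls and Id2 and Id4 rise from alone to co-culture in p53+/+ NPCs without overlap, and Id1 and Hes5 are split by the circles of the cultures without bmvECs.

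Hes1 and Hes6 fell and Hey1, Id2, Id3 and Id4 rose in p53+/+ NPCs in co-culture. This comparison asked how contact with bmvECs changed NPCs with p53. Thus 4 of the 9 tested members were called higher and 2 lower at an adjusted p under 0.05 (edgeR quasi-likelihood test, Benjamini-Hochberg over 13745 genes), where 21.2% of all tested genes were called higher and 18.3% lower (39.5% in either direction). The members' median log2 fold change was 0.83, beside 0.00 over all tested genes. All 6 called members also had groups that did not overlap, as had 53.7% of all tested genes.

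Hes1, a Notch effector that keeps progenitors undifferentiated, was at 21.9, 28.2 and 28.8 CPM in p53+/+ NPCs alone and at 13.4, 16.1 and 18.2 CPM in co-culture. Every co-culture library was below every library of NPCs alone, and the fall was of like size in each experiment. Hes1 fell by 0.73 ± 0.17 (log2 fold change ± SE; edgeR adjusted p = 0.00419). Without experiment 25_9, the adjusted p was 0.0881. In p53-/- NPCs, Hes1 was at 45.4, 36.9 and 37.9 CPM alone and at 22.9, 21.8 and 28.7 CPM in co-culture, again with no overlap. It fell by 0.71 ± 0.16 (edgeR adjusted p = 0.00526), and without experiment 25_9 the adjusted p was 0.0783. Hes1 was the sole member called in 4 comparisons, since p53-/- NPCs also had more of it than p53+/+ NPCs in both cultures.

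Hes6, a family member known to oppose Hes1 and to favour neuronal differentiation, was at 75.7, 79.5 and 67.4 CPM in p53+/+ NPCs alone and at 43.7, 56.9 and 49.8 CPM in co-culture. The groups did not overlap. Hes6 fell by 0.56 ± 0.13 (log2; edgeR adjusted p = 0.00506), a call lost without experiment 17_9 (log2 fold change -0.44, adjusted p = 0.0565). In p53-/- NPCs it was at 69.3, 59.1 and 56.2 CPM alone and 46.8, 54.3 and 45.4 CPM in co-culture, without overlap but with 1 co-culture library close to those of NPCs alone. The log2 fold change was -0.33 ± 0.13 (edgeR adjusted p = 0.0665), and with the experiment as a block it was -0.34 ± 0.12 (adjusted p = 0.0295).

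Hes5, the Hes gene most closely tied to Notch activity in neural stem cells, had 42.8% of its sum of squares of log2 CPM between experiments, a share exceeded among the members by Id1 alone. It was at 0.812, 12.3 and 10.7 CPM in p53+/+ NPCs alone and at 11.8, 24.5 and 14.0 CPM in co-culture. In p53-/- NPCs it was at 3.87, 43.8 and 22.2 CPM alone and at 21.0, 43.5 and 27.9 CPM in co-culture. Both cultures without bmvECs of experiment 17_9 were low, the groups overlapped in each culture comparison, and no comparison called Hes5. Its log2 fold change with co-culture in p53+/+ NPCs was 1.06 ± 0.77 (edgeR adjusted p = 0.292). With the experiment as a block it was 1.33 ± 0.49 (adjusted p = 0.0397) in edgeR and 1.56 ± 0.70 (adjusted p = 0.0510) in DESeq2. Hes5 was higher in p53-/- than in p53+/+ NPCs in every experiment, by 2.21, 1.83 and 1.06 on the log2 CPM scale alone and by 0.83, 0.83 and 1.00 in co-culture. The fitted effect of p53 loss on Hes5 was 1.54 ± 0.77 (log2) on laminin and 0.88 ± 0.75 with bmvECs (edgeR adjusted p = 0.248 and 0.498). Its blocked value alone was 1.45 ± 0.48 (edgeR adjusted p = 0.0571).

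Promoter windows from RefSeq (GRCm38.p6, from 250 bases before to 50 after a gene's start) were found for 6 of the 10 genes. They were searched on both strands for the RBPJ core TGGGAA, the N box CACNAG, the class C site CACGCG, the E box CANNTG and the core of a BMP response element, GGCGCC. Hes5 and Hey2 are shown because each window held 2 RBPJ cores, found at least that often in 3.79% of all 32851 windows, and capitals mark the cores. Each is given 5′ to 3′ up to 20 bases past the start, at chr4:154960673-154960942 on the plus strand for Hes5 and chr10:30842764-30843033 on the minus strand for Hey2.
Hes5: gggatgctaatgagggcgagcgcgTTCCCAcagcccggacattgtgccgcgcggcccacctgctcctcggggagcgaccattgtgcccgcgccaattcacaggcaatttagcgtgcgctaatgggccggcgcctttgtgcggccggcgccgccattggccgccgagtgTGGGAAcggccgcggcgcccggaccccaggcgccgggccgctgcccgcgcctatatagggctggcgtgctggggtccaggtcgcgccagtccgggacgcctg
Hey2: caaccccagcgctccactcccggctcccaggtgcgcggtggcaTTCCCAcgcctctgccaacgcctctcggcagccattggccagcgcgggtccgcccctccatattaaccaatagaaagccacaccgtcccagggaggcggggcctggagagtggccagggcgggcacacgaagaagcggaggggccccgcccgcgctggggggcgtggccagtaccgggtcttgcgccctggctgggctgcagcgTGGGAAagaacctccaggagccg
The cores of Hes5 began 226 and 82 bases before the start, and those of Hey2 207 and 3 bases before it. Hes5 also held 4 matches to GGCGCC and Hey2 1, a 6-base word that may be matched more often where GC content is high (72.7% in the Hes5 window, against a median of 52.7% over all windows). A match is a description of the letters and no measurement of binding.

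**Figure D2:**
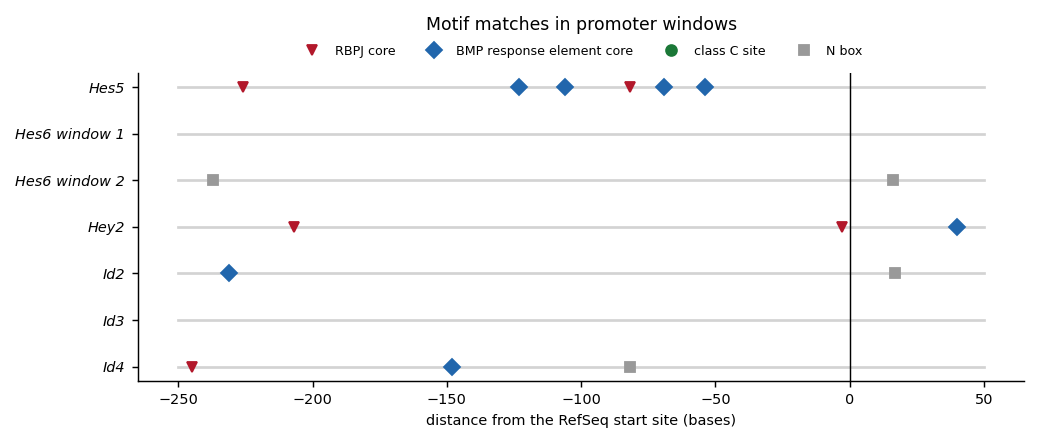
Matches to 4 of the 5 searched motifs (RBPJ core, GGCGCC, class C site and N box; E boxes are not drawn) in the 7 promoter windows found (Hes6 has 2), with the distance from the RefSeq start site in bases on the horizontal axis and the start at 0; no window held the class C site. Red triangles are RBPJ cores, blue diamonds GGCGCC and grey squares N boxes. Hes5 holds 2 RBPJ cores and 4 GGCGCC matches, and Id3 and the first Hes6 window hold none of the 4 drawn.

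Hey1, a Notch target also expressed in blood vessels, was at 61.2, 93.0 and 99.7 CPM in p53+/+ NPCs alone and at 153, 160 and 137 CPM in co-culture. All co-culture libraries were above all libraries of NPCs alone. Hey1 rose by a log2 fold change of 0.83 ± 0.18 (edgeR adjusted p = 0.00332), with an adjusted p of 0.0562 when experiment 25_9 was left out. In p53-/- NPCs it was at 66.1, 98.0 and 94.9 CPM alone and at 112, 113 and 107 CPM in co-culture. These groups did not overlap either, but the difference was smaller (0.36 ± 0.18, edgeR adjusted p = 0.136; with the experiment as a block 0.38 ± 0.15, adjusted p = 0.0545 in edgeR, and 0.39 ± 0.16, adjusted p = 0.0355 in DESeq2).

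Hey2 and Heyl, both known from vascular cells, were scarce. Hey2 was at 1.50, 0.794 and 0.458 CPM in p53+/+ NPCs alone and at 1.58, 0.728 and 1.95 CPM in co-culture, and in p53-/- NPCs at 1.21, 0.956 and 1.11 CPM alone and at 2.00, 2.01 and 2.06 CPM in co-culture. The p53-/- co-culture libraries lay above those of p53-/- NPCs alone and of p53+/+ co-culture, but no comparison called Hey2. Its log2 fold change with co-culture was 0.64 ± 0.42 in p53+/+ and 0.89 ± 0.40 in p53-/- NPCs (edgeR adjusted p = 0.246 and 0.102); fitted on the p53-/- libraries only, the latter was 0.90 ± 0.28 (adjusted p = 0.0403). Heyl had 1, 1 and 3 counts in p53+/+ NPCs alone, 4, 3 and 5 in p53+/+ co-culture, 5, 21 and 7 in p53-/- NPCs alone and 10, 17 and 8 in p53-/- co-culture. Each p53-/- library had more Heyl counts than the p53+/+ libraries of the same culture. Without the filter on low counts, the log2 fold change of Heyl with p53 loss was 2.51 ± 0.70 alone and 1.52 ± 0.60 in co-culture (edgeR adjusted p = 0.0507 and 0.157), and these counts are too few to rank the libraries.

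Id2, Id3 and Id4 rose together in p53+/+ co-culture. Id2, the Id gene known from neural and oligodendrocyte progenitors, was at 59.6, 46.8 and 35.6 CPM alone and at 161, 150 and 95.4 CPM in co-culture, with no overlap. It rose by a log2 fold change of 1.52 ± 0.29 (edgeR adjusted p = 0.00139), and this call held in each of 15 refits that left out a library or an experiment. Id4, known to slow neural stem cell activation by holding down proneural activity, was at 13.0, 9.08 and 6.71 CPM alone and at 46.5, 39.0 and 29.9 CPM in co-culture. Its lowest co-culture library was above its highest library of NPCs alone, and its log2 fold change of 2.01 ± 0.42 (edgeR adjusted p = 0.00257) was the largest of the members. Without experiment 25_9 the adjusted p of Id4 was 0.0544.

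Id3, a BMP target of both progenitors and vessels, was at 98.8, 83.9 and 61.6 CPM in p53+/+ NPCs alone and at 164, 209 and 103 CPM in co-culture. The groups were separated by a small gap, between the highest library alone and the lowest in co-culture. Id3 rose by a log2 fold change of 0.96 ± 0.30 (edgeR adjusted p = 0.0238). The call was lost in 5 of 15 leave-outs (adjusted p 0.0535 to 0.239): without the p53+/+ co-culture library of 17_9 or 25_9, without the p53+/+ library alone of 25_9 or 1_10, and without experiment 25_9. With the experiment as a block it was 0.94 ± 0.16 (adjusted p = 0.000428).

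In p53-/- NPCs, co-culture called 1 member higher (Id4) and 1 lower (Hes1), where 18.8% of all tested genes were higher and 17% lower (35.8% in either direction). Besides these, Hes6, Hey1 and Hey2 had groups that did not overlap, as had 44.9% of all tested genes. The members' median log2 fold change was 0.36, beside -0.01 over all tested genes. Id4 was at 24.1, 8.38 and 5.55 CPM in p53-/- NPCs alone and at 31.8, 29.2 and 27.7 CPM in co-culture. The library alone of experiment 17_9 came close to the co-culture libraries, without overlap. Id4 rose by a log2 fold change of 1.22 ± 0.41 (edgeR adjusted p = 0.0348), with within-experiment differences of 0.40, 1.80 and 2.32. The call was lost in 6 of 15 leave-outs (adjusted p 0.0711 to 0.246): without the p53-/- co-culture library of 17_9 or 25_9, the p53-/- library alone of 25_9 or 1_10, or the whole of experiment 25_9 or 1_10. It was also lost when only the p53-/- libraries were fitted (1.23 ± 0.44, adjusted p = 0.0595). With the experiment as a block it was 1.41 ± 0.27 (adjusted p = 0.00133).

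Id2 was at 87.6, 49.5 and 44.9 CPM in p53-/- NPCs alone and at 124, 111 and 75.8 CPM in co-culture. Co-culture was higher in every experiment, but the highest library alone exceeded the lowest in co-culture. The log2 fold change was 0.77 ± 0.28 (edgeR adjusted p = 0.0502), and with the experiment as a block it was 0.79 ± 0.13 (adjusted p = 0.000389). Id3 was at 166, 110 and 72.5 CPM alone and at 149, 162 and 108 CPM in co-culture, so the groups overlapped, and its log2 fold change was 0.27 ± 0.30 (edgeR adjusted p = 0.519).

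**Figure D3:**
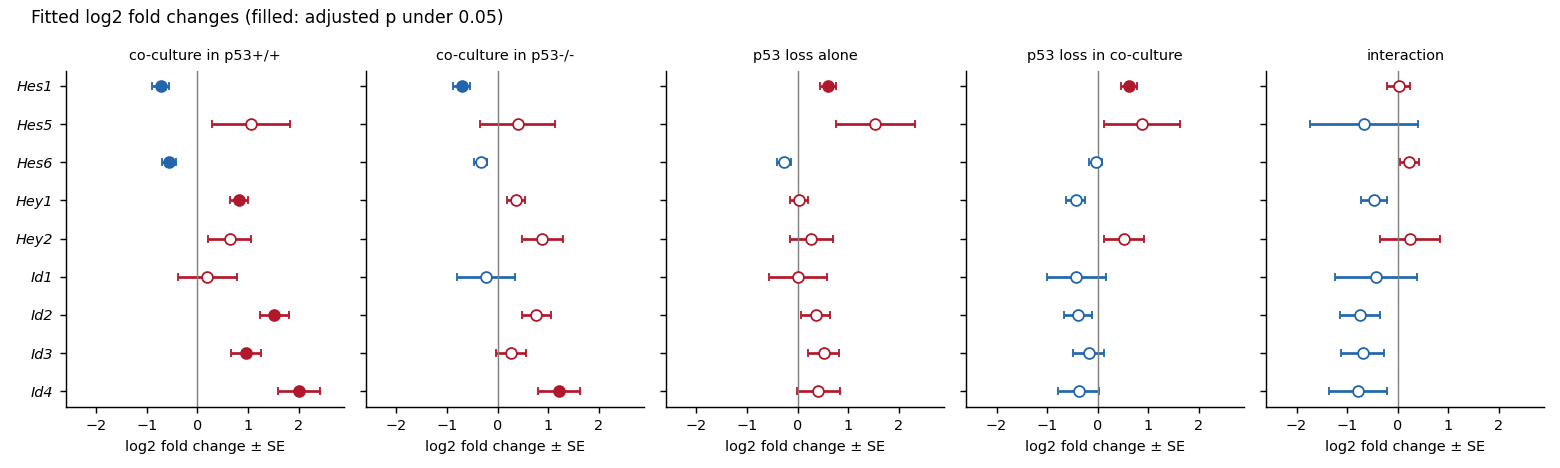
Log2 fold change ± SE (horizontal axis) of the 9 tested genes in the 5 comparisons, from the edgeR model over 12 libraries; red is above and blue below 0, and filled points have an adjusted p under 0.05. Filled points number 6 for co-culture of p53+/+ NPCs, 2 for that of p53-/- NPCs, 1 for p53 loss in each culture (Hes1) and 0 for the interaction.

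Of Id2, Id3 and Id4, which rose together in p53+/+ co-culture, the promoters of Id2 and Id4 each held 1 GGCGCC match and are shown with it in capitals. This word was found in 11.9% of all windows. GC content was 63.3% in the Id2 and 73.3% in the Id4 window, against a median of 52.7% over all windows. Both promoters run 5′ to 3′ from 250 bases before to 20 past the start, at chr12:25096073-25096342 on the minus strand for Id2 and chr13:48260866-48261135 on the plus strand for Id4.
Id2: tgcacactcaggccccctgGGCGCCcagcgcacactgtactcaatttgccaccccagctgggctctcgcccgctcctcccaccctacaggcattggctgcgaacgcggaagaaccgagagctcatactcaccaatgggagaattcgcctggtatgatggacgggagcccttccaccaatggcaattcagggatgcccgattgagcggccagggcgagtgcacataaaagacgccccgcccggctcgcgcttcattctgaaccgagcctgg
Id4: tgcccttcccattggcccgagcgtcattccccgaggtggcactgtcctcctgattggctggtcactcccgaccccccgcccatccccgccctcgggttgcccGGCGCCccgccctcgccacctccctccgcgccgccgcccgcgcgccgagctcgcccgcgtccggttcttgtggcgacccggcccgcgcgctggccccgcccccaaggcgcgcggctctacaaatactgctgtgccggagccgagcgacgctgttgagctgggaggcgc
The match began 231 bases before the start in Id2 and 148 bases before it in Id4, and Id4 held 1 RBPJ core, a word in 25.6% of all windows. The Id3 window held neither word.

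Id1, a classical BMP target, went in opposite directions in different experiments. It was at 63.0, 19.6 and 17.5 CPM in p53+/+ NPCs alone and at 39.5, 47.0 and 27.8 CPM in co-culture. In p53-/- NPCs it was at 70.4, 17.2 and 12.5 CPM alone and at 30.9, 31.0 and 23.5 CPM in co-culture. The cultures without bmvECs of experiment 17_9 had the 2 highest values of all 12 libraries, and the groups overlapped in every comparison. Experiment accounted for 54.1% of the sum of squares of log2 CPM and group for 8.48%. Within experiment 17_9 the co-culture difference was -0.67 in p53+/+ and -1.19 in p53-/- NPCs, whereas it was 1.26 and 0.85 in 25_9 and 0.66 and 0.90 in 1_10. No comparison called Id1 (log2 fold change 0.20 ± 0.58 for p53+/+ NPCs and -0.23 ± 0.58 for p53-/- NPCs with bmvECs, edgeR adjusted p = 0.809 and 0.787). Without experiment 17_9, Id1 was higher in co-culture, by 1.03 ± 0.27 in p53+/+ (adjusted p = 0.0195) and by 0.89 ± 0.27 in p53-/- NPCs (adjusted p = 0.0499).

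The same 2 libraries stood apart in other genes. The summed level of 15 mural and fibroblast markers was 714 CPM in the p53+/+ and 1243 CPM in the p53-/- culture without bmvECs of experiment 17_9, against 86.7 to 159 CPM in the other 10 libraries. Most of that sum was Acta2, smooth muscle actin, which reached 431 and 765 CPM there. Over all genes with enough reads, the patterns closest to that of Id1 belonged to Myl9, F3 and Junb. The part of these differences in the values of Id1, and in the low Hes5 of the same libraries, was not tested. Leaving out experiment 17_9 changed the number of members called in p53+/+ co-culture from 4 to 5 higher and from 2 to 1 lower, and in p53-/- co-culture from 1 to 3 higher with 1 lower. The share of all tested genes called in that refit is not given here. Over the 15 leave-outs, all genes called in p53+/+ co-culture ran from 1209 to 3051 higher and from 780 to 2936 lower. In p53-/- co-culture they ran from 1343 to 2735 higher and from 804 to 2627 lower.

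**Figure D4:**
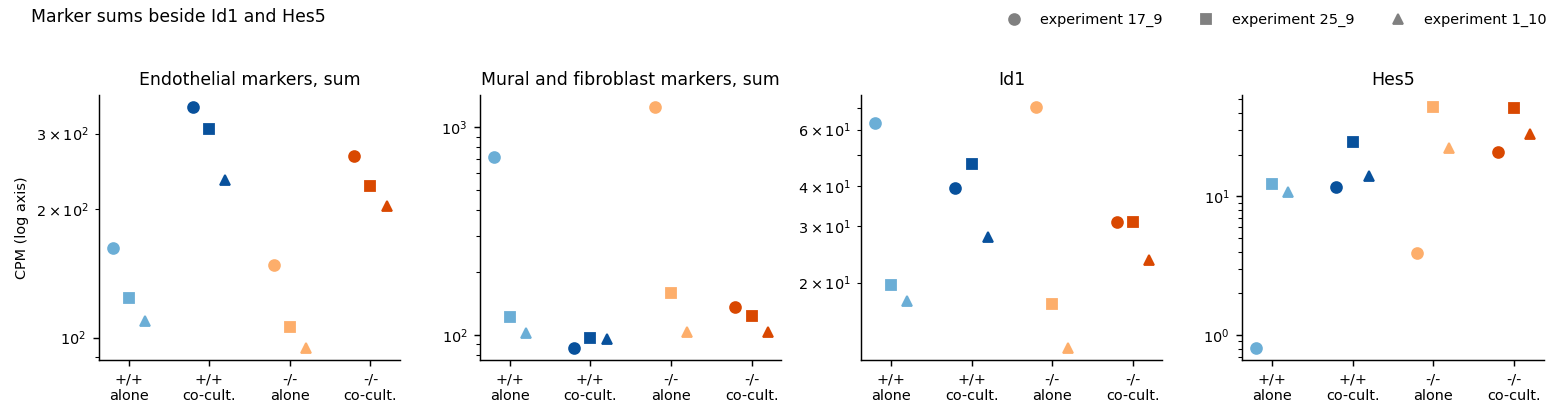
Summed CPM of 26 endothelial markers and of 15 mural and fibroblast markers beside the CPM of Id1 and Hes5 in every library (log axes, each panel with its own scale), by group; circles, squares and triangles are experiments 17_9, 25_9 and 1_10. The circles of the cultures without bmvECs are highest in the mural panel (714 and 1243) and in Id1 (63.0 and 70.4) and lowest in Hes5 (0.812 and 3.87).

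Loss of p53 in NPCs alone called 1 member, Hes1, which rose, and 0 members lower, where 2.02% of all tested genes were higher and 4.27% lower (6.29% in either direction). At an unadjusted p under 0.05, 0 members were lower as well. In either direction, 1 of the 9 members and 3265 of all 13745 tested genes were under it. DESeq2 also called 0 members lower. This comparison and the next asked what NPCs lose or gain without p53. The members' median log2 fold change was 0.36, beside 0.05 over all tested genes. Hes1 was higher in each p53-/- library (36.9 to 45.4 CPM) than in each p53+/+ library (21.9 to 28.8 CPM), which 14.9% of all tested genes also showed (27.3% in either direction). It rose by a log2 fold change of 0.60 ± 0.16 (edgeR adjusted p = 0.0458). This call lay close to the threshold: it was lost in 14 of 15 leave-outs (adjusted p 0.0531 to 0.292), all but that of the p53+/+ co-culture library of 1_10, and it also failed with upper-quartile scaling, scaling by library size or only the 2 groups in the fit. With the experiment as a block the adjusted p was 0.0148.

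In co-culture, p53 loss again called Hes1 higher and 0 members lower, where 3.24% of all tested genes were higher and 4.93% lower (8.16% in either direction). At an unadjusted p under 0.05, 1 member, Hey1, was lower. In either direction, 2 of the 9 members and 3474 of all 13745 tested genes were under it. DESeq2 called 0 members lower. For Hes1 the p53-/- libraries (21.8 to 28.7 CPM) did not overlap with the p53+/+ libraries (13.4 to 18.2 CPM), and the same held for Hey2 and Hey1 and for 31.3% of all tested genes. Hes1 rose by a log2 fold change of 0.62 ± 0.17 (edgeR adjusted p = 0.0373), a call lost in 10 of 15 leave-outs (adjusted p 0.0516 to 0.318) but not with the experiment as a block (adjusted p = 0.0125). The members' median log2 fold change was -0.18, beside 0.02 over all tested genes. The 10 leave-outs were those of each experiment, of each experiment 25_9 library, of both co-culture libraries of 17_9 and of the p53-/- co-culture library of 1_10.

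Of the tested members, 4 (Hey1, Id2, Id1 and Id4) were lower in p53-/- than in p53+/+ co-culture in each experiment. The share of all tested genes that did so was not computed. The differences were -0.35, -0.60 and -0.24 for Id1 and -0.54, -0.42 and -0.11 for Id4. Their log2 fold changes were -0.42 ± 0.58 and -0.38 ± 0.40 (edgeR adjusted p = 0.688 and 0.596). For Hey1 the p53-/- libraries (107 to 113 CPM) lay below all p53+/+ libraries (137 to 160 CPM), and the log2 fold change was -0.44 ± 0.18 (edgeR adjusted p = 0.152; with the experiment as a block 0.0583 in edgeR and 0.0285 in DESeq2; fitted on these 2 groups only 0.0333). For Id2 the groups overlapped, and the within-experiment differences were -0.38, -0.44 and -0.33. Its log2 fold change was -0.39 ± 0.28 (edgeR adjusted p = 0.418), and with the experiment as a block -0.39 ± 0.12 (adjusted p = 0.0455 in edgeR and 0.0238 in DESeq2). Of the 23 endothelial markers tested, 0 were called in the same comparison, with a median log2 fold change of -0.33. Their part in the Hey1 and Id2 values was not tested.

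Id3 differed by 0.74, 0.39 and 0.24 between p53-/- and p53+/+ NPCs alone within the experiments. The fitted log2 fold change was 0.51 ± 0.30 (edgeR adjusted p = 0.325), and with the experiment as a block it was 0.47 ± 0.16 (adjusted p = 0.0586) in edgeR and 0.46 ± 0.16 (adjusted p = 0.0317) in DESeq2. Apart from Hes1, no tested member was called with p53 loss in either culture in the edgeR fit over 12 libraries without a block. The log2 fold changes of these uncalled members ran from -0.27 for Hes6 to 1.54 for Hes5 alone. In co-culture they ran from -0.44 for Hey1 to 0.88 for Hes5.

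The interaction asked whether the response to bmvECs depended on p53. It called 0 members higher and 0 lower by edgeR, where 0% of all tested genes were higher and 0.0364% lower. An unadjusted p under 0.05 was found for 0 of the 9 members and for 976 of all 13745 tested genes. DESeq2 called 0 members, and 1, Id2, with the experiment as a block. In each experiment, p53-/- NPCs had the lower co-culture difference for 4 tested members, Id2, Id3, Hey1 and Hes5, and the higher for 1, Hes6. The share of all tested genes with the same order in each experiment was not computed. The interaction was -0.75 ± 0.40 for Id2 (edgeR adjusted p = 0.739; with the experiment as a block -0.72 ± 0.18, adjusted p = 0.147 in edgeR, and -0.72 ± 0.20, adjusted p = 0.0210 in DESeq2). It was -0.69 ± 0.43 for Id3 and -0.47 ± 0.26 for Hey1 (edgeR adjusted p = 0.780 and 0.746), and -0.66 ± 1.06 for Hes5 and 0.23 ± 0.19 for Hes6 (adjusted p = 0.917 and 0.837). Hes1 had nearly the same response in both genotypes, with an interaction of 0.02 ± 0.23 (edgeR adjusted p = 0.994). The fall of Hes1 and the rise of Id4 were thus called in both genotypes in the edgeR fit over 12 libraries without a block. In that fit Hey1, Id2, Id3 and Hes6 were called in p53+/+ NPCs only. With the experiment as a block, edgeR also called Id2 and Hes6 in p53-/- co-culture (adjusted p = 0.000389 and 0.0295). A difference between genotypes was not shown by edgeR for Hey1, Id2, Id3 or Hes6.

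**Figure D5:**
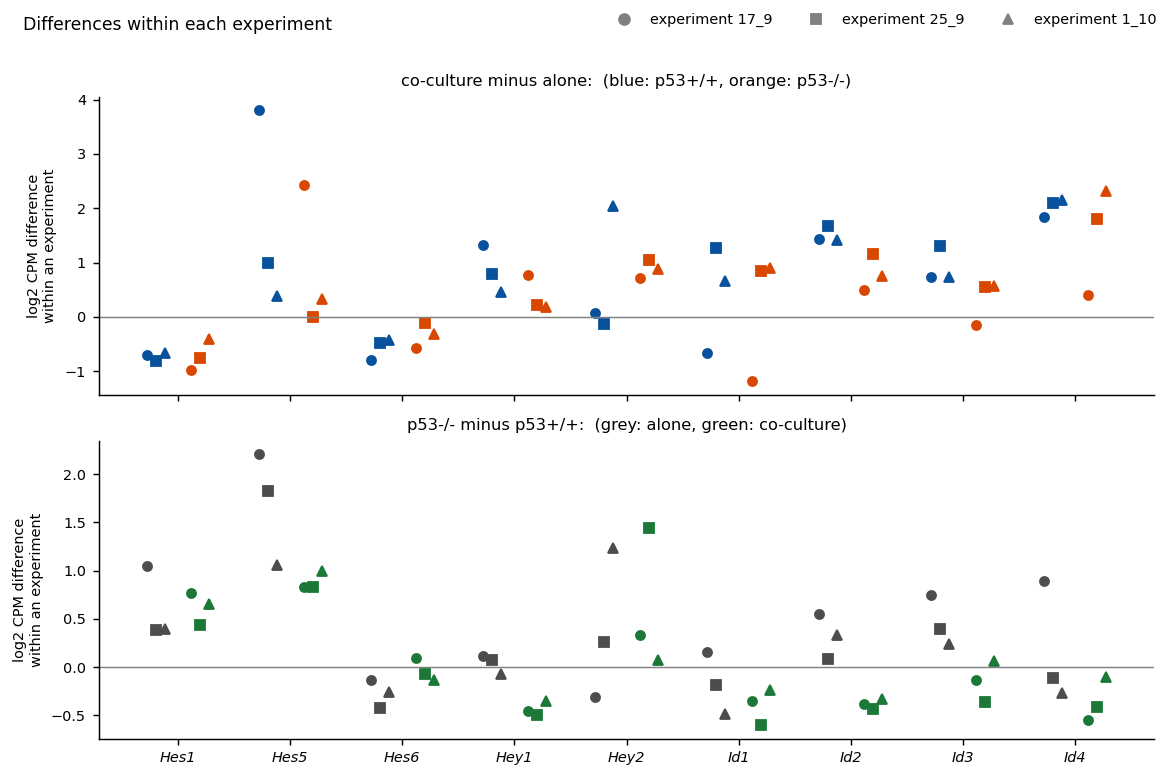
Differences of log2 CPM within each experiment (vertical axes) for the 9 tested genes (horizontal axis): co-culture minus alone above, p53-/- minus p53+/+ below; circles, squares and triangles are experiments 17_9, 25_9 and 1_10, and colours are given in each panel's title. Id1 lies below 0 for experiment 17_9 and above 0 for the others with co-culture, and Id2 lies above 0 with p53 loss alone and below 0 with p53 loss in co-culture in all 3 experiments.

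Among the genes upstream of Hes and Hey, receptors and ligands of Notch moved in both directions. The counts of each list below stand beside the shares of all tested genes, 21.2% higher and 18.3% lower in p53+/+ and 18.8% higher and 17% lower in p53-/- NPCs put with bmvECs. In p53+/+ co-culture, 2 of the 4 Notch receptors were higher (Notch4, log2 fold change 2.27 ± 0.31, and Notch3, 0.87 ± 0.23; edgeR adjusted p = 0.000124 and 0.00872) and 2 were lower (Notch2, -1.05 ± 0.17, and Notch1, -0.57 ± 0.12; adjusted p = 0.000418 and 0.00286). In p53-/- co-culture Notch4 and Notch3 were higher and 0 lower. Notch4 and the ligand Dll4 are known from endothelium, and both were scarce in NPCs alone, at 1.24 ± 0.0150 and 0.559 ± 0.250 CPM in p53+/+. In p53-/- NPCs alone they were at 1.67 ± 0.396 and 2.25 ± 1.25 CPM, and in p53+/+ co-culture at 6.00 ± 1.53 and 2.52 ± 0.552 CPM. Of 7 tested ligands, Dll4 was higher (2.14 ± 0.48, adjusted p = 0.00385) and Jag1 lower (-1.13 ± 0.31, adjusted p = 0.0109) in p53+/+ co-culture, and Dner was higher and Jag1 lower in p53-/- co-culture. With p53 loss, Dll3 rose in both cultures (1.20 ± 0.24 on laminin and 1.17 ± 0.24 with bmvECs, adjusted p = 0.0109 and 0.0116), Dner fell in both, Dll4 rose alone, and Notch3 and Notch2 fell alone.

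Of 22 processing factors and modulators, 5 were higher and 1 lower in p53+/+ and 3 higher and 0 lower in p53-/- co-culture, so the share that was higher was near that of all tested genes in p53+/+ and below it in p53-/- NPCs. Dtx1, a Notch-binding ubiquitin ligase, rose in both (1.61 ± 0.29 and 1.41 ± 0.29, edgeR adjusted p = 0.000892 and 0.00268), and Mfng, a glycosyltransferase of Notch, rose with p53 loss alone and in co-culture (1.00 ± 0.27 and 1.14 ± 0.27, adjusted p = 0.0488 and 0.0234). Of 10 nuclear factors of the pathway, 4 were lower and 0 higher in p53+/+ co-culture, among them the deacetylase Hdac1, the coactivator Maml1 and Rbpj itself (-0.45 ± 0.14, adjusted p = 0.0215), and 1, Hdac1, was lower in p53-/- co-culture. Maml1 rose with p53 loss in co-culture (0.54 ± 0.12, adjusted p = 0.0191). Among 6 genes of the Groucho family, whose corepressors Hes proteins recruit, Tle1 rose and Tle3 and Tle4 fell in both co-cultures. Tle2 rose in p53-/- co-culture, and Tle4 rose with p53 loss in both cultures. Of 6 other Hes-like repressors 2 were tested, and Bhlhe41 rose in p53+/+ and p53-/- co-culture (1.52 ± 0.16 and 1.80 ± 0.17, adjusted p = 2.1e-05 and 9.8e-06) and fell with p53 loss alone and in co-culture (-0.91 ± 0.16 and -0.63 ± 0.16, adjusted p = 0.00623 and 0.0269).

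Of 16 BMP receptors and Smads, 4 were higher and 3 lower in p53+/+ co-culture, and 4 were higher and 1 lower in p53-/- co-culture, and the shares in p53+/+ NPCs were near those of all tested genes. Bmpr1b, a type I receptor of neural progenitors, rose in both (0.96 ± 0.13 and 1.14 ± 0.13, edgeR adjusted p = 0.000117 and 4.4e-05). Acvrl1 and Eng, receptors known from endothelium, were near 0 in NPCs alone (Acvrl1 had counts in 1 p53+/+ library and in no p53-/- library) and reached 4.91 ± 1.33 and 2.82 ± 1.00 CPM in p53+/+ co-culture. Of 12 tested genes listed with the BMP ligands and antagonists, 3 were higher and 2 lower in p53+/+ and 4 higher and 1 lower in p53-/- co-culture. In both, Bmp1, which despite its name encodes a protease and not a BMP ligand, and the antagonist Chrd were higher. The antagonist Sostdc1 was lower in both. Bmper fell with p53 loss, from 45.9 ± 8.19 to 10.6 ± 0.834 CPM alone (log2 fold change -2.11 ± 0.17, adjusted p = 1.2e-05) and from 41.8 ± 2.49 to 16.9 ± 3.07 CPM in co-culture (-1.30 ± 0.16, adjusted p = 0.000587).

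The partners that Id proteins sequester, with the activators that these partners serve, gave 7 tested genes of 14. Of these, 4 were lower and 0 higher in both co-cultures. Insm1 (log2 fold change -2.28 ± 0.40), Olig1 (-0.57 ± 0.13) and Olig2 (-0.78 ± 0.20) were lower in p53+/+ co-culture (edgeR adjusted p = 0.000839, 0.00332 and 0.00767). Olig2, Tcf3 and Olig1 were lower in p53-/- co-culture (-0.72 ± 0.20, -0.58 ± 0.17 and -0.40 ± 0.13; adjusted p = 0.0134, 0.0178 and 0.0263). The remaining called genes were Tcf3 in p53+/+ (-0.56 ± 0.17, adjusted p = 0.0191) and Insm1 in p53-/- co-culture (-1.12 ± 0.37, adjusted p = 0.0307). Tcf3 encodes an E protein, a direct partner of Id, whereas Olig1 and Olig2 are factors of the oligodendrocyte lineage and Insm1 is a zinc finger protein of neuronal precursors. The other tested E proteins, Tcf4 and Tcf12, were not called. Tcf4 was at 514 ± 31.4 and 444 ± 67.5 CPM in p53+/+ NPCs alone and in co-culture and at 472 ± 49.0 and 516 ± 72.3 CPM in p53-/- NPCs (edgeR adjusted p = 0.251 and 0.505). Tcf12 was at 547 ± 42.4 and 487 ± 88.9 CPM and at 578 ± 65.2 and 622 ± 66.9 CPM in the same order (adjusted p = 0.376 and 0.604). With p53 loss, 0 of the 7 were called alone and Insm1 was higher in co-culture (1.72 ± 0.40, adjusted p = 0.0215).

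The members' patterns over the 12 libraries were compared by the root mean square difference of centred log2 CPM, with all libraries shared between the genes compared. Id2 and Id3 were the closest pair of members, at 0.32, followed by Id2 and Id4 at 0.41 and Hes1 and Hes6 at 0.45. Each called member was closer to other genes than to any member, among 11087 candidates whose log2 CPM averaged 2 or more. Because the candidates far outnumber the members, this was likely beforehand and does not show whether the members share a pattern. The nearest 3 were Fmnl3, Sap30 and Thumpd1 for Hes1 (0.10 to 0.13), Rgs3, Bicd2 and Tbc1d9 for Hes6 (0.095 to 0.11), and Slc1a4, Asb8 and Msrb2 for Hey1 (0.11 in each case). They were Ccdc80, Capg and Mvp for Id2 (0.16 to 0.22), Map1lc3a, Efhd2 and Cystm1 for Id3 (0.19 to 0.24), and Cntnap2, Col6a1 and Glul for Id4 (0.30 to 0.34).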

How the data were processed

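Bulk RNA-seq was analysed in 12 NPC libraries. Per the labels and methods, libraries were made with a TruSeq stranded mRNA kit; alignment by the authors used TopHat2 2.0.11 against mm9, and HTSeq 0.6.1 gave the gene assignment. The deposited values are raw counts per gene; neither strand setting nor annotation version is given in the sources used here, so overlapping and antisense genes are uncertain. Columns were assigned to groups by name.

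Of 24108 listed genes, filterByExpr of edgeR 4.0.16 (R 4.3.3) kept 13745. TMM factors were 0.961 to 1.04 and total counts 16509710 to 22245224, which bounds the precision of scarce genes such as Hey2. All 12 libraries entered 1 quasi-likelihood fit with a mean for each group, p-values were adjusted by Benjamini-Hochberg over all tested genes in each of 5 comparisons, and the threshold was 0.05. Libraries of a group differed beyond counting noise (chi-square over degrees of freedom 12.6 to 59.4 in 12 pairs). Alternatives were other scalings, DESeq2 1.42.0 (the tool named in the methods), other filters, only the groups compared, a threshold of 0.01, leaving out each library or experiment, and the experiment as a block.

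A key of the authors' count table gives equal experiment names as paired, and libraries of one experiment deviated together (r = 0.138 to 0.590 in 18 pairs between groups, against -0.566 to 0.227 in 36 pairs of different experiments). Libraries are biological repeats per the series text.

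The members and gene lists were chosen with earlier results of these data known. Named genes were every member, Trp53, up to 3 called genes of each pathway list on each side and the 3 genes nearest to each called member. Nes, Sox2, Gfap, Slc1a3, P2ry12, Tcf4, Tcf12, Acta2, Tie1, Mmrn2, Sox17, Slc2a1, Cnp, Pdgfra, Map2 and Cdh5, the genes nearest to Id1, and Rbpj, Tcf3 in p53+/+ and Insm1 in p53-/- co-culture were chosen after their values were seen. A gene that the rule names is not reported here. Promoter sequences came from RefSeq (GRCm38.p6) and were matched by symbol. Exon lengths came from GENCODE M21, which is not the build of the counts and may differ from the counted models.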

Additional observations from a re-analysis of the deposited data

Results flagged for a closer look

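Id2 was singled out because its 3 experiments moved one way with p53 loss alone and the other way with p53 loss in co-culture. The fitted log2 fold change was 0.36 (within-experiment differences 0.56, 0.08 and 0.33) alone and -0.39 (-0.38, -0.44 and -0.33) in co-culture. This choice rests on direction only and was not tested in itself; the interaction, which compares the same 4 groups, had an edgeR adjusted p of 0.739, and with the experiment as a block 0.147 in edgeR and 0.0210 in DESeq2. Without the p53-/- library alone of experiment 17_9, the value alone was -7e-04.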

How the results depend on the processing

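The directions of the called members held in all settings run, and the settings below moved counts or uncalled values; the cause was not tested. Of members called in p53-/- co-culture, 2 were higher with DESeq2 or its size factors, scaling by library size alone or by the upper quartile, the experiment as a block in edgeR, no filter or at least 10 counts per library, 3 with the block in DESeq2 and 0 at a threshold of 0.01, and 2 were lower with the block in edgeR and DESeq2. All genes called in p53-/- co-culture were 2586 higher and 2341 lower in the edgeR fit without a block. There were 3335 and 3192 with the block in edgeR, and 3279 and 3207 with it in DESeq2. All genes higher numbered 2750 with DESeq2, 2597 with its size factors, 2840 with library size alone and 2909 with the upper quartile. They numbered 2488 with no filter and 2283 with at least 10 counts. With p53 loss alone, 0 members were higher with upper-quartile scaling, library size alone, only the groups compared or the threshold of 0.01, and 2 with the block in DESeq2. With p53 loss in co-culture, 0 were higher at 0.01, and 1 was lower with the block in edgeR or only the groups compared and 2 with the block in DESeq2; the interaction had 1 lower with the block in DESeq2. The block changed no other call of a member beyond those given in the report. Over the 15 leave-outs, members called ran from 1 to 5 higher and 1 to 2 lower in p53+/+ co-culture, from 0 to 3 higher and 0 to 1 lower in p53-/- co-culture, and from 0 to 1 higher with p53 loss in either culture. All genes called ran from 1209 to 3051 higher and 780 to 2936 lower in p53+/+ co-culture. They ran from 1343 to 2735 higher and 804 to 2627 lower in p53-/- co-culture. With p53 loss, all genes called higher ran from 13 to 221 alone and from 2 to 591 in co-culture.

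Changes of sign were all in uncalled values. Id1 in p53-/- co-culture was 0.12 and 0.16 with the block in edgeR and DESeq2. Id1 with p53 loss alone was -0.0096 with size factors of DESeq2, -0.017 with upper-quartile scaling, -0.0035 with library size alone, -0.016 with DESeq2, -0.090 and -0.12 with the block in edgeR and DESeq2, -0.0092 with at least 10 counts and -0.020 with only the groups compared. Hey1 with p53 loss alone was -0.017 with upper-quartile scaling and -0.0085 with only the groups compared, and Hes6 with p53 loss in co-culture was 0.0064 with library size alone. Over leave-outs the log2 fold changes ran from -0.012 to 1.15 (Hey2) and -0.26 to 1.03 (Id1) in p53+/+ co-culture and from -0.11 to 1.25 (Hes5) and -0.63 to 0.93 (Id1) in p53-/- co-culture. With p53 loss alone they ran from -0.16 to 0.19 (Hey1), -0.094 to 0.80 (Hey2), -1.16 to 0.85 (Id1), -7e-04 to 0.56 (Id2) and -0.45 to 0.73 (Id4), and with p53 loss in co-culture from -0.14 to 0.052 (Hes6) and -0.41 to 0.065 (Id3). For the interaction they ran from -0.080 to 0.17 (Hes1), -1.16 to 0.23 (Hes5), -0.27 to 0.92 (Hey2), -1.27 to 0.74 (Id1) and -1.11 to 0.073 (Id4).

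Counts over all genes, higher and lower, were 2908 and 2522 in p53+/+ co-culture (1911 and 1376 at 0.01) and 2586 and 2341 in p53-/- co-culture (1597 and 1116 at 0.01). With p53 loss alone they were 277 and 587, against 516 and 954 with DESeq2, 996 and 1282 with the block in edgeR, 1091 and 1472 with the block in DESeq2, 43 and 306 with only the groups compared and 36 and 253 at 0.01. With p53 loss in co-culture they were 445 and 677, against 760 higher with DESeq2, 1373 and 1499 with the block in edgeR, 1435 and 1593 with the block in DESeq2 and 91 and 239 at 0.01. The interaction had 0 and 5, against 9 and 16 with DESeq2, 3 and 8 and 205 and 70 with the block in edgeR and DESeq2, and 1 lower with upper-quartile scaling or at 0.01. Without experiment 25_9, co-culture called 1209 and 780 genes in p53+/+ and 1343 and 804 in p53-/- NPCs, and p53 loss called 13 and 107 genes alone and 2 and 40 in co-culture.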

Other observations

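Summed oligodendrocyte lineage markers were at 139 to 185 CPM in p53+/+ and 134 to 254 CPM in p53-/- NPCs alone, against 355 to 392 and 297 to 419 CPM in co-culture. The largest part was Cnp, at 112 ± 24.9 CPM alone and 256 ± 11.2 in co-culture in p53+/+, and 97.1 ± 28.2 and 228 ± 35.3 in p53-/- NPCs. Pdgfra went down, from 21.0 ± 2.95 to 9.60 ± 2.72 and from 59.3 ± 10.8 to 39.7 ± 7.83 CPM. Of the 7 tested markers, 5 were higher and 1 lower in p53+/+ co-culture (all tested genes, 21.2% and 18.3%). In p53-/- co-culture, 2 were higher and 1 lower (18.8% and 17%). Summed neuroblast and neuron markers lay between 494 and 708 CPM in all libraries. Of that sum, Map2 held 504 ± 44.5 CPM alone and 417 ± 65.6 in co-culture in p53+/+, and 547 ± 87.2 and 530 ± 106 in p53-/- NPCs. The sum thus tells little of the other neuronal markers. Of the 8 tested, 1 was higher and 1 lower in p53+/+ and 1 higher and 0 lower in p53-/- co-culture. Summed microglia markers were at 1.49 to 1.94 CPM in p53+/+ and 1.39 to 4.21 CPM in p53-/- NPCs alone, against 4.27 to 6.32 and 3.87 to 6.07 CPM in co-culture. P2ry12, the 1 microglia marker of 10 that passed the filter, was higher in both co-cultures (log2 fold change 2.02 ± 0.44 and 1.22 ± 0.41, edgeR adjusted p = 0.00299 and 0.0332). Sox10, a regulator of the oligodendrocyte lineage, was the gene with the pattern closest to that of Hes5 (root mean square difference 0.61, n = 12 libraries), and Hr and Sox8 followed at 0.70 and 0.74. Sox10, Hr and Sox8 were chosen after their values were seen, and their likeness carries no test.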
